A study of Mus musculus with 14 samples.

Results

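Mitochondrial ribosomal protein genes, named Mrpl for the large and Mrps for the small subunit of the mitochondrial ribosome with exceptions given below, were followed across 5 groups of mouse CD4+ T cell libraries. Members were all rows of the protein-coding count table whose gene name begins with Mrpl or Mrps and a number. This rule gave 77 of 22048 genes, 48 of them Mrpl and 29 Mrps, and 76 of the 77 passed the filter on low counts. The mitochondrial ribosome sits in the matrix and makes the few proteins encoded by mitochondrial DNA, which are core subunits of the respiratory chain and ATP synthase. Its ribosomal RNAs come from mitochondrial DNA, whereas its proteins are encoded in the nucleus, made in the cytosol and imported. T cells are known to expand their mitochondria and their translation machinery after stimulation through the T cell receptor.

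Spleens and peripheral lymph nodes of C57BL/6 mice with a YFP reporter of interferon-gamma were the source of all cells. The naive group (n = 3 libraries) was sorted directly as CD4+ CD44- CD62L+. The other 4 groups began as enriched CD4+ T cells and were kept for 4 days under Th1 conditions, on plates coated with antibodies to CD3 and CD28 (1 µg/ml of each) and with 10 ng/ml of IL-2, 10 ng/ml of IL-12 and 10 µg/ml of anti-IL4. The medium held 1 µM of SGC0946, which inhibits the histone methyltransferase DOT1L, or 1 µM of SGC0649, a control compound without that activity. Cells with (YFPpos) and without (YFPneg) reporter signal were sorted at the end. The cultured groups were YFPneg with SGC0649 (n = 2, numbered 61 and 62), YFPpos with SGC0649 (n = 3, numbered 61 to 63), YFPneg with SGC0946 (n = 3, numbered 91 to 93) and YFPpos with SGC0946 (n = 3, numbered 91 to 93). A YFPneg library numbered 63 and a culture with no compound were not analysed here. Nothing in the sources used here says which libraries came from separate animals, so p-values measure the spread between these libraries, part of which may be technical.

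Total counts ran from 14486577 to 31614057 per library. All 6 T cell marker genes tested were abundant in every library (summed level 2069 to 3321 CPM, the customary library-scaled count, here with TMM factors), and Cd4 lay between 501 and 1052 CPM. Markers of other cells were low but differed between groups. The 5 B cell markers in the table summed to at most 2.61 CPM and the erythroid markers to at most 1.59 CPM. The 7 myeloid markers summed to 14.1 to 15.9 CPM in naive libraries, 9.085 to 9.495 CPM in YFPpos SGC0946 and 4.46 to 7.85 CPM in the other cultured libraries. The 5 NK cell markers summed to 6.80 to 7.43 CPM in YFPpos SGC0946 and 0.41 to 4.17 CPM elsewhere. In YFPpos SGC0946 most of these sums came from Itgam and Klre1. Cd68 stood at 2.58 to 3.47 CPM and Fcgr3 at 0.40 to 0.56 CPM there. Of the other myeloid markers the highest was Cd14 at up to 0.16 CPM, and Csf1r was at 0. Besides Klre1 the highest NK cell marker was Klrb1c at up to 0.12 CPM, and Ncr1 and Klra8 were at 0. The CD8 T cell markers summed to 16.1 to 19.3 CPM in naive, 12.2 to 19.7 CPM in YFPneg SGC0946 and 4.76 to 9.51 CPM in the other cultured libraries. The share of unmapped reads was 7.40 to 8.66% for naive libraries, lower for YFPneg (3.14 to 4.62%) and 6.44 to 8.35% for YFPpos, except for YFPpos SGC0946 92 at 3.61%. The part of mapping rate or of other cells in the differences below was not tested. In bulk RNA, fewer cells of a type and less RNA per cell cannot be told apart, and CPM are shares of a library, so the total RNA of a cell was not measured.

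The 77 genes together took a larger share of the library in every cultured group than in naive cells. Their summed level was 2377 to 2433 CPM in the 3 naive libraries, 3070 to 3167 in YFPneg SGC0649, 2860 to 2868 in YFPneg SGC0946, 3855 to 4248 in YFPpos SGC0649 and 3370 to 3652 in YFPpos SGC0946. No 2 groups overlapped in this sum. The naive group was lowest, the YFPneg groups came next, and within each sort the SGC0946 libraries lay below the SGC0649 libraries. Among the 76 tested genes, the highest group mean was that of YFPpos SGC0649 for 66 genes and the lowest was that of naive cells for 62 genes. Matching counts of group means over all genes were not computed, so these counts give no contrast with other genes. For 48 of the 76 genes all naive libraries lay below all cultured libraries, which was so for 30.0% of all 12343 genes tested.

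**Figure D1:**
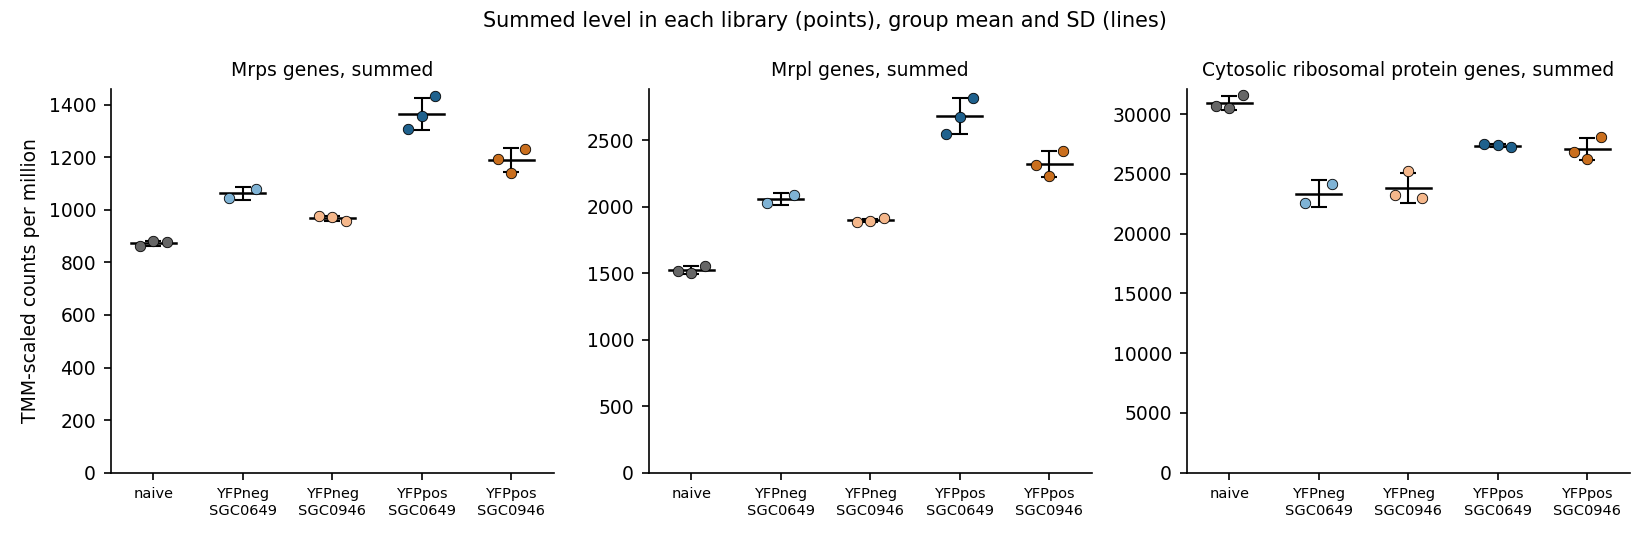
Summed TMM-scaled CPM of the Mrps genes, the Mrpl genes and the cytosolic ribosomal protein genes in each library; points are libraries, horizontal lines group means and vertical bars SD. The Mrp sums rise from naive (863 to 882 for Mrps, 1500 to 1557 for Mrpl) to YFPpos SGC0649 (1309 to 1431 and 2546 to 2817), whereas the cytosolic sum is highest in naive cells.

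The cytosolic ribosome, which translates all nuclear messages, gave a different order. Its protein genes summed to 30490 to 31630 CPM in naive cells and 22540 to 28060 CPM in the cultured libraries, with naive above all of them. For every 1000 counts on cytosolic ribosomal protein genes there were 76.9 to 78.1 counts on Mrp genes in naive libraries and 113 to 156 in cultured libraries. The balance of Mrpl and Mrps genes also differed from naive cells. The ratio of summed Mrpl to summed Mrps counts was 1.70 to 1.78 in naive and 1.93 to 1.998 in all 11 cultured libraries. Leaving out Mrpl24, the large-subunit gene described below, the ratio was 1.51 to 1.57 in naive and 1.84 to 1.91 in cultured libraries.

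Compared per length of exon sequence, the most abundant members by the mean of the 5 groups were Mrpl18 (71.2 CPM per kilobase), Mrpl12 (54.2), which encodes a stalk protein also reported to bind the mitochondrial RNA polymerase, and Mrps21 (51.5). The lowest were Mrpl53 (0.19 CPM per kilobase), Mrpl23 (0.60) and Mrpl48 (2.35). Lengths were those of all annotated exons of a gene merged, 8.152 kb for Mrpl48, so a long gene model lowers this value. The median over 77 genes was 11.75 CPM per kilobase in naive and 19.79 in YFPpos SGC0649 libraries. Mrpl53 was the one member that failed the filter, with 4 to 10 counts in each naive library, and 88.0% of its exon bases are shared with the same-strand gene Gm42688. Reads that 2 genes share could be split or dropped by the counting, so the levels of Mrpl53, Mrps34 (37.0% of exon bases shared on the same strand), Mrps18c (23.2%) and Mrps6 (19.9%) are uncertain. Of 50-base stretches of transcript sequence, 22.4% in Mrpl22 and 22.3% in Mrpl27 occur in GENCODE M21 transcripts of genes at other positions, and 37 members share none with such transcripts.

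The promoters of the members on which the results turn are printed here as 250 bases before to 50 after the RefSeq start (build GRCm38.p6), since genes that rise together and genes that go against them can be compared in the same window. Mrps6, Mrpl20, Mrpl45 and Mrpl12 had the largest rises from naive cells, Mrps33 had the largest difference between sorts, and Mrpl24 fell from naive cells. Capitals mark matches to NRF1 (GCGC, any 2 bases, GCGC), ETS (CCGGAAG, or CTTCCGG on the other strand), E-box (CACGTG) or YY1 (AAGATGG) letters, searched on both strands.
Mrps6 (chr16:92058086-92058385, plus strand): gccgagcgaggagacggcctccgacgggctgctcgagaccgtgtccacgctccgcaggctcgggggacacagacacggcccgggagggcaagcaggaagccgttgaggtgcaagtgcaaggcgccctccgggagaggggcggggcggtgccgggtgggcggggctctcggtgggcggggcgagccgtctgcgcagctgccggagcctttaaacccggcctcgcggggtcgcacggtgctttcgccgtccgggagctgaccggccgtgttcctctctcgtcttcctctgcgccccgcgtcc
Mrpl20 (chr4:155802628-155802927, plus strand): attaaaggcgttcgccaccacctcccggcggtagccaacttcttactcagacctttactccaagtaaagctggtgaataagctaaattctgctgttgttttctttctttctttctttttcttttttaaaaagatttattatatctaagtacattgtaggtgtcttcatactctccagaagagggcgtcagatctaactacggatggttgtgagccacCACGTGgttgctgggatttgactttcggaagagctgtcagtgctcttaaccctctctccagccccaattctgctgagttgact
Mrpl45 (chr11:97315466-97315765, plus strand): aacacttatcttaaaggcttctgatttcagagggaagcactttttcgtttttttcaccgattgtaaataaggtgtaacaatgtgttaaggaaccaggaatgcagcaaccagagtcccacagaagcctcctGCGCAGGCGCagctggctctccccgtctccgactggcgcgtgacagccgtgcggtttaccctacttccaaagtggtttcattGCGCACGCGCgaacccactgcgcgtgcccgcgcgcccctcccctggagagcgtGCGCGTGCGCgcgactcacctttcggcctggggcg
Mrpl12 (chr11:120484387-120484686, plus strand): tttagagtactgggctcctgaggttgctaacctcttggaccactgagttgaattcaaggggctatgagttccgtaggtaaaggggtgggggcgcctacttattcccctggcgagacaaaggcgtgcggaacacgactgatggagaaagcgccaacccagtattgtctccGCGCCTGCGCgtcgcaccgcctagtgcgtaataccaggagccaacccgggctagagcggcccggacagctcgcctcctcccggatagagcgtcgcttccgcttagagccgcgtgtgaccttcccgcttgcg
Mrps33 (chr6:39810887-39811186, minus strand): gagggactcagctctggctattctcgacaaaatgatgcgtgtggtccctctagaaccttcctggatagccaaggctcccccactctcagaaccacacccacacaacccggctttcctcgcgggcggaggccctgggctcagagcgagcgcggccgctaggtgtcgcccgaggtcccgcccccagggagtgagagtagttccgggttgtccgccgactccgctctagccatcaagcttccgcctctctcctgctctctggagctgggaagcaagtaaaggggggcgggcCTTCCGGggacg
Mrpl24 (chr3:87919294-87919593, plus strand): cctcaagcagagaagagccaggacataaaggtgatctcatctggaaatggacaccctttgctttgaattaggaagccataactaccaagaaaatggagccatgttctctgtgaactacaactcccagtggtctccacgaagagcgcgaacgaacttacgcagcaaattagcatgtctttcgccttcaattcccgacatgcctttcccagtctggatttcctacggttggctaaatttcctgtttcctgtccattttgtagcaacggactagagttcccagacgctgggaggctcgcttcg

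Mrpl45 held 3 NRF1 matches, Mrpl12 held 1, Mrps33 held 1 ETS match and Mrpl20 held 1 E-box match. The windows of Mrps6 and Mrpl24 held none of these letters, which says only that the letters are not in these 300 bases. NRF1 and the ETS factor GABP are known regulators of nuclear genes for mitochondrial proteins. Promoters were found for 68 of the 77 members, in 74 windows. ETS letters were in 33.8% of the member windows against 8.86% of all 32851 windows of the RefSeq table, NRF1 letters in 18.9% against 6.23%, YY1 letters in 17.6% against 6.34% and E-box letters in 9.46% against 7.15%. The median GC content was 58.5% in member windows and 52.7% in all windows, and matches to GC-rich letters depend on base composition. The set of all windows was not limited to genes expressed in these cells, whereas nearly all members passed the filter on low counts. A match is a description of sequence, not a measured binding site.

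The first set of comparisons asked how the cultured Th1 cells differ from naive cells. Most members rose in each of the 4 cultured groups, by a median log2 difference of 0.35 to 0.83. In YFPpos SGC0649 against naive cells 67 of 76 members were higher and 2 lower at an adjusted p under 0.05 (edgeR quasi-likelihood test, Benjamini-Hochberg over all genes). This comparison called 79.8% of all 12343 genes tested, 42.6% higher and 37.3% lower. In YFPpos SGC0946 against naive 63 were higher and 6 lower, where 80.7% of all genes were called (42.2% higher, 38.5% lower), and 63 and 4 without YFPpos SGC0946 92, the library with few unmapped reads. In YFPneg SGC0649 against naive 56 were higher and 5 lower, with 69.0% of all genes called (36.4% higher, 32.6% lower), and in YFPneg SGC0946 against naive 50 were higher and 8 lower, with 72.9% called (38.6% higher, 34.3% lower). The total share of members called is therefore close to that of all genes or somewhat above it, and the members differ from all genes mainly in the side on which they were called. The median log2 difference of members was 0.48, 0.83, 0.35 and 0.65 in YFPneg SGC0649, YFPpos SGC0649, YFPneg SGC0946 and YFPpos SGC0946, beside 0.03, 0.09, 0.05 and 0.05 over all genes. The 4 comparisons share the naive libraries, and starting population, stimulation, time in culture and compound cannot be told apart in them.

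**Figure D2:**
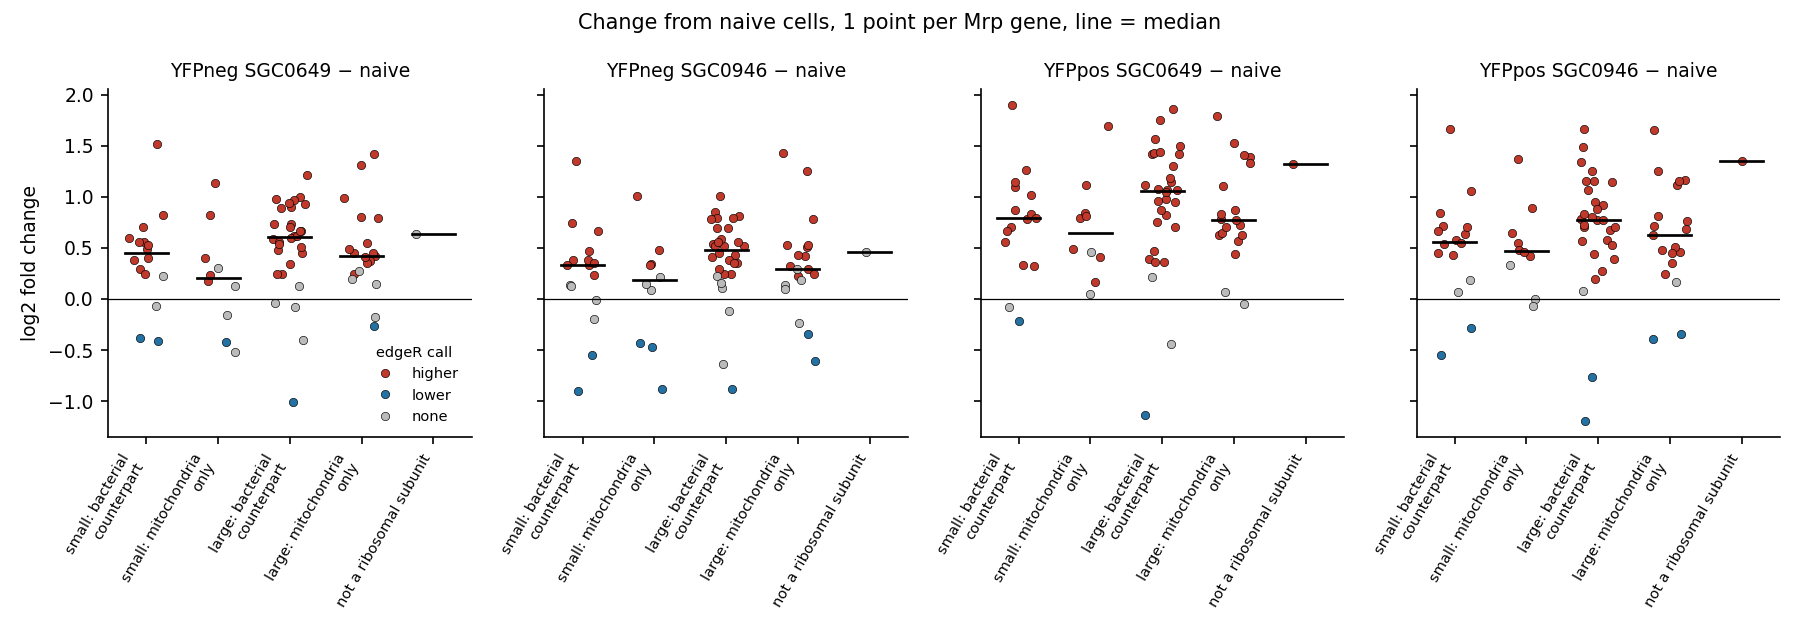
Log2 fold change from naive cells for the 76 tested Mrp genes in each cultured group, split by subunit and by whether the protein has a bacterial counterpart; red and blue mark genes called higher and lower by edgeR, and black lines are medians. Most points lie above 0 in every panel, with Mrpl24 as the lowest point in 3 of the 4 panels.

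Both subunits and both evolutionary classes rose. Proteins with a bacterial counterpart form the ribosome's old core, and the mitochondria-specific ones are additions found in the organelle. Of 30 large-subunit genes with a bacterial counterpart, 27 were higher in YFPpos SGC0649 than in naive cells (median log2 difference 1.06), as were 17 of 19 mitochondria-specific large-subunit genes (0.78). In the small subunit 14 of 16 with a bacterial counterpart (0.79) and 8 of 10 mitochondria-specific genes (0.64) were higher. In YFPneg SGC0649 cells the same 4 classes counted 25 of 30, 14 of 19, 12 of 16 and 5 of 10 higher. Mrps36, which carries the family name but encodes a component of the oxoglutarate dehydrogenase complex, was higher in both YFPpos groups (log2 difference 1.32 and 1.35) from a low level of 1.19 to 2.22 CPM in naive cells.

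Mrps6 (chr16:92058270-92112227, plus strand in GENCODE M21), a small-subunit protein with a bacterial counterpart, had the largest rise. Its level was 19.7, 20.5 and 18.2 CPM in naive libraries, 57.9 and 53.7 in YFPneg SGC0649, 49.3, 45.3 and 54.0 in YFPneg SGC0946, 70.0, 70.8 and 76.7 in YFPpos SGC0649 and 62.0, 58.4 and 64.3 in YFPpos SGC0946. Every cultured library lay above every naive one, and every YFPpos library above every YFPneg library. The rise was 3.73-fold in YFPpos SGC0649 (log2 difference 1.90, SE 0.09, adjusted p = 1e-12, edgeR) and 2.87-fold in YFPneg SGC0649 (1.52, SE 0.09).

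Mrpl45 (chr11:97315716-97329920), a large-subunit protein at the exit of the nascent chain that tethers the ribosome to the inner membrane, stood at 25.4, 24.7 and 23.5 CPM in naive libraries. It reached 67.3 and 63.6 CPM in YFPneg SGC0649, 64.5, 64.4 and 69.5 in YFPneg SGC0946, 78.9, 86.5 and 90.0 in YFPpos SGC0649 and 80.6, 77.2 and 73.1 in YFPpos SGC0946. Naive and cultured libraries did not overlap, and the groups with the 2 compounds overlapped within each sort. The log2 difference from naive was 1.79 (SE 0.07, adjusted p = 3.5e-13, edgeR) in YFPpos SGC0649, and this was the smallest p among the members there.

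Mrpl12 rose from 37.9, 34.5 and 36.1 CPM in naive cells to 109.7, 124 and 131 CPM in YFPpos SGC0649 (log2 difference 1.75, SE 0.10, adjusted p = 1.9e-11, edgeR). Mrpl20, a large-subunit protein with a bacterial counterpart, rose from 32.7, 25.3 and 28.0 CPM to 95.03, 102.5 and 113.5 CPM (1.86, SE 0.11, adjusted p = 4.8e-11). Mrps22, a mitochondria-specific small-subunit protein, rose from 14.98, 13.8 and 15.1 CPM to 44.6, 47.0 and 50.4 CPM (1.69, SE 0.10, adjusted p = 2.8e-11). In each of these the 3 YFPpos SGC0649 libraries lay above all naive libraries by a wide margin, and the YFPneg groups lay between. In YFPneg cells with either compound Mrpl54, a mitochondria-specific large-subunit protein, was also among the 4 largest rises (log2 difference 1.31 with SGC0649 and 1.25 with SGC0946).

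Other members with named roles in the ribosome's work rose by less than Mrps6, Mrpl45 and Mrpl12 in YFPpos SGC0649. The median log2 difference over members was 0.83 there, and these lay on both sides of it. Mrps12, a protein of the decoding centre, rose by a log2 difference of 0.56, Mrpl3 of the peptidyl transferase region by 0.87, Mrpl11 of the stalk base by 1.15 and Mrpl44, a ribonuclease-like protein, by 0.57. The 3 genes named after bacterial S18 rose by a log2 difference of 0.62 (Mrps18a, which is placed in the large subunit), 0.80 (Mrps18b) and 0.83 (Mrps18c). In the classes above, Mrps18c was counted as having a bacterial counterpart, and Mrps18a and Mrps18b as mitochondria-specific. Mrps27, a pentatricopeptide repeat protein that binds RNA, rose by 1.12 and Mrps30, a protein placed in the large subunit despite its name, by 0.71. Mrpl32, whose processing by the mitochondrial m-AAA protease is known to be needed for ribosome assembly, was called in none of the 4 comparisons with naive cells. It measured 25.3 to 28.2 CPM in naive and 30.3 to 33.5 CPM in YFPpos SGC0649 libraries, and its log2 difference there was 0.22 (adjusted p = 0.11, edgeR).

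**Figure D3:**
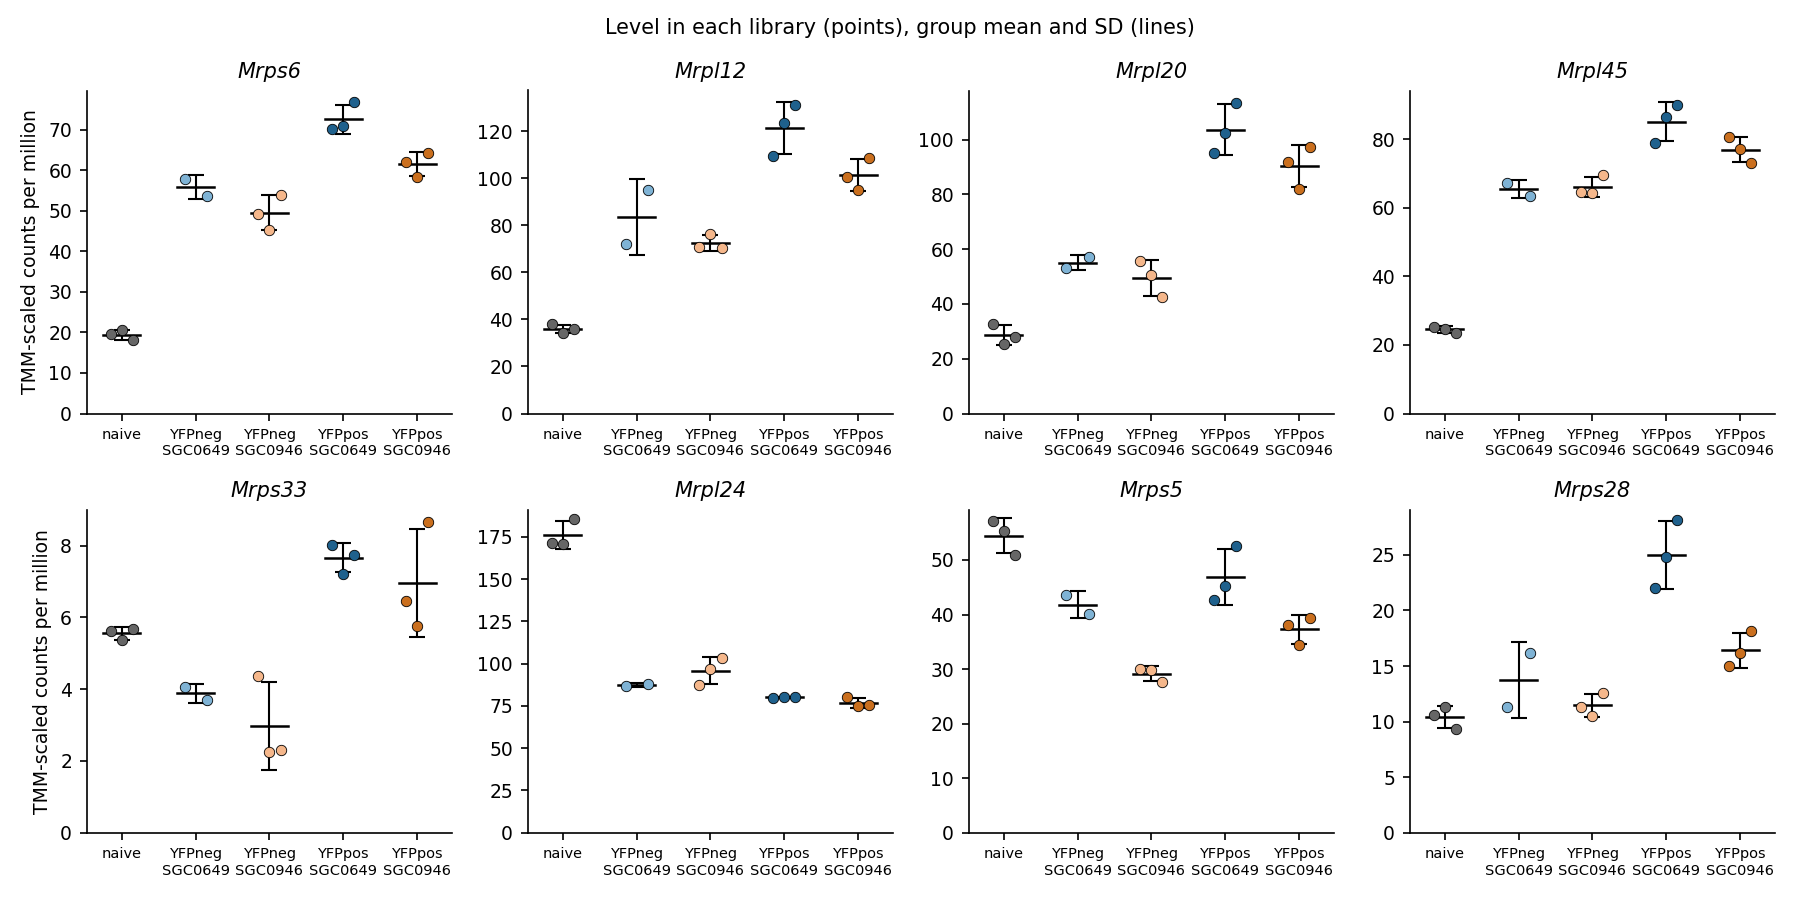
TMM-scaled CPM of 8 Mrp genes in each library, with group means and SD. Mrps6, Mrpl12, Mrpl20 and Mrpl45 are lowest in naive cells and highest in YFPpos cells, Mrpl24 is highest in naive cells, and Mrps5 and Mrps28 show the SGC0946 libraries below the SGC0649 libraries within the YFPpos sort.

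Mrpl24 went the other way from most of its family. It encodes a large-subunit protein with a bacterial counterpart, lies at chr3:87919506-87923672 on the plus strand and was the most abundant member per kilobase in naive cells (78 CPM per kilobase). Its level was 171.4, 171.0 and 185.4 CPM in naive libraries, 86.6 and 88.2 in YFPneg SGC0649, 87.3, 96.6 and 103.3 in YFPneg SGC0946, 79.9, 80.2 and 80.3 in YFPpos SGC0649 and 80.2, 75.1 and 75.3 in YFPpos SGC0946. Every naive library was above every cultured one. It fell 2.20-fold in YFPpos SGC0649 (log2 difference -1.13, SE 0.06, adjusted p = 2.3e-11, edgeR) and 2.01-fold in YFPneg SGC0649 (-1.01, SE 0.07). Mrpl24 alone made up 7.18 to 7.62% of all Mrp counts in naive cells and 1.89 to 3.603% in cultured cells. Exons of the opposite strand overlap 26.3% of its exon bases, and 1.9% of its 50-base stretches occur in transcripts of genes at other positions.

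Mrps5 (chr2:127587222-127606829), whose bacterial counterpart S5 lines the entry tunnel of the messenger, was lower than naive in all 4 groups. It measured 57.2, 55.3 and 50.9 CPM in naive libraries, 43.5 and 40.1 in YFPneg SGC0649, 30.0, 29.8 and 27.6 in YFPneg SGC0946, 42.7, 45.3 and 52.6 in YFPpos SGC0649 and 38.1, 34.4 and 39.4 in YFPpos SGC0946. Only the YFPpos SGC0649 group overlapped with naive. The log2 difference from naive was -0.90 (SE 0.09, adjusted p = 1.4e-07, edgeR) in YFPneg SGC0946 and -0.22 (SE 0.09, adjusted p = 0.035) in YFPpos SGC0649. The latter call was lost, for example at an adjusted p of 0.16 without YFPpos SGC0649 61, so 1 or 2 members were lower in that comparison.

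Of the remaining members called lower in at least 1 comparison with naive cells, Mrpl37 and Mrps17 were lower in 3, Mrps35 and Mrpl38 in 2, and Mrpl23, Mrps26 and Mrps33 in 1. Mrpl37, a mitochondria-specific large-subunit protein, stood at 68.6 to 71.6 CPM in naive and 42.3 to 49.7 CPM in YFPneg SGC0946 libraries (log2 difference -0.61, SE 0.09, adjusted p = 5.4e-06, edgeR). Mrps17 stood at 64.6 to 67.4 CPM in naive and 35.9 to 52.3 CPM in YFPneg SGC0946 libraries (-0.54, adjusted p = 0.00014). Single calls among these were lost for Mrpl37 in YFPneg SGC0649 without YFPneg SGC0649 61 (adjusted p = 0.11, edgeR) and for Mrps17 in YFPpos SGC0946 without YFPpos SGC0946 92 (0.064). Mrps35 was lower in both YFPneg groups (-0.42 and -0.47) and was called in neither YFPpos group. Mrps26 was lower in YFPneg SGC0946 (-0.43, adjusted p = 9.3e-05) and higher in YFPpos SGC0649 (0.17, adjusted p = 0.049), the latter call being lost without any of 5 single libraries (adjusted p up to 0.16, without naive 1). The call on Mrpl23, a gene of 1.12 to 4.74 CPM, was lost without any of 5 single libraries (adjusted p up to 0.15, without naive 2).

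The second set of comparisons asked how reporter-positive cells differ from reporter-negative cells of the same culture conditions. With SGC0649, 53 of 76 members were higher in YFPpos cells and 0 lower (edgeR, adjusted p under 0.05), in a comparison that called 45.2% of all genes, 23.9% higher and 21.3% lower. At an unadjusted p under 0.05 no member was lower either, but the share of all genes at that threshold was not computed. The count of higher members was 37 to 52 when single libraries were left out, and lowest without YFPneg SGC0649 61. With SGC0946, 47 members were higher and 1 lower, where 54.7% of all genes were called, 26.9% higher and 27.8% lower, and both counts were the same without YFPpos SGC0946 92. The median log2 difference over members was 0.37 with SGC0649 and 0.33 with SGC0946, beside 0.04 and 0.01 over all genes. These 2 comparisons share no library. Across the 76 members their log2 differences had a Pearson correlation of 0.79 and a Spearman correlation of 0.76, given as a description of genes measured in the same libraries, with 0.71 (Pearson) over all 12343 genes. There were 41 members higher with both compounds, 18 with 1 compound and 17 with neither. Matching counts over all genes were not computed, so these counts give no contrast with other genes.

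**Figure D4:**
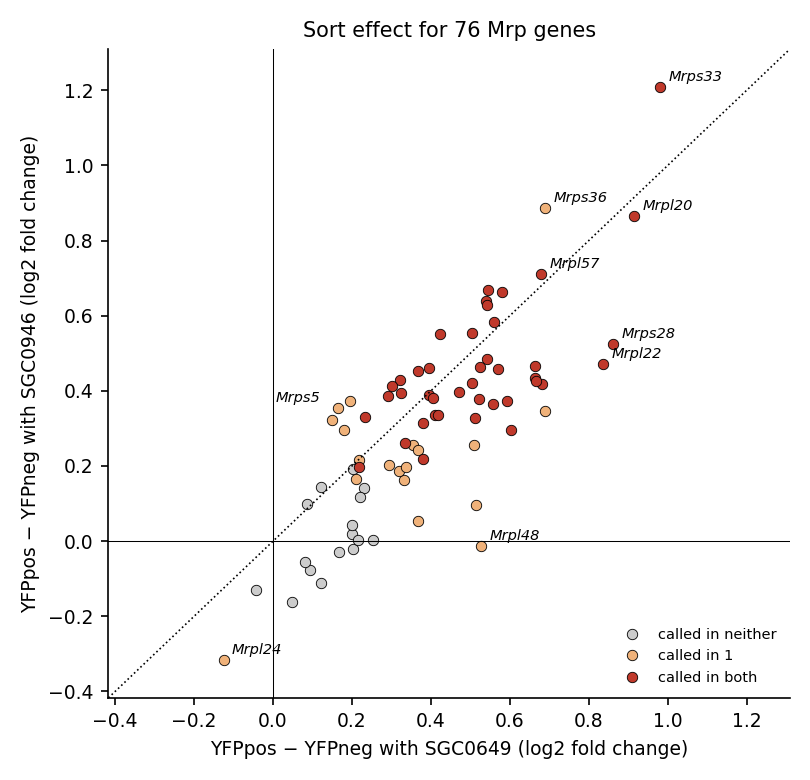
Log2 difference between YFPpos and YFPneg cells for the 76 tested Mrp genes, with SGC0649 on the horizontal axis and SGC0946 on the vertical axis; colours show in how many of the 2 comparisons a gene was called, and the dotted line marks equal differences. Most genes lie in the upper right quadrant, Mrps33 lies farthest out, and Mrpl24 lies below 0 on both axes.

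Mrps33 (chr6:39801804-39810988), a mitochondria-specific small-subunit protein, had the largest difference between sorts, at a low level. It measured 4.06 and 3.70 CPM in YFPneg and 8.03, 7.22 and 7.74 CPM in YFPpos libraries with SGC0649, and 4.38, 2.25 and 2.30 CPM in YFPneg against 6.45, 5.76 and 8.66 CPM in YFPpos with SGC0946. The 2 sorts did not overlap with either compound. The log2 difference was 0.98 (SE 0.27, adjusted p = 0.0065, edgeR) with SGC0649 and 1.21 (SE 0.24, adjusted p = 0.00046) with SGC0946. Naive cells, at 5.36 to 5.67 CPM, lay between both sorts. Of its 50-base stretches 13.3% occur in transcripts of genes at other positions.

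With SGC0649 Mrpl20 followed, with 53.0 and 57.0 CPM in YFPneg SGC0649 libraries, 55.5, 50.6 and 42.6 in YFPneg SGC0946 and the YFPpos SGC0649 levels given above. Its log2 difference between sorts was 0.91 (SE 0.12, adjusted p = 1.1e-05, edgeR) with SGC0649 and 0.86 (SE 0.11, adjusted p = 3.1e-06) with SGC0946. The other members among the 4 largest with SGC0649 were Mrps28 (0.86) and Mrpl22 (0.84), and Mrpl57, a mitochondria-specific large-subunit protein, differed by 0.68 and 0.71. Mrpl22 was called against naive in neither YFPneg group and was higher in both YFPpos groups. With SGC0946 the second largest difference was that of Mrps36, at 2.83, 3.12 and 0.98 CPM in YFPneg and 4.49, 4.73 and 3.775 CPM in YFPpos libraries. Its log2 difference was 0.89 (SE 0.34, adjusted p = 0.037, edgeR), and the call was lost in 5 alternatives, among them without YFPneg SGC0946 93 (adjusted p = 0.091) and without YFPpos SGC0946 91, 92 or 93 (0.088, 0.1 and 0.054). With SGC0649 Mrps36 was not called (0.69, adjusted p = 0.16).

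By class, the members higher in YFPpos cells with SGC0649 were 21 of 30 large-subunit genes with a bacterial counterpart, 13 of 19 mitochondria-specific large-subunit genes, 9 of 16 small-subunit genes with a bacterial counterpart and 10 of 10 mitochondria-specific small-subunit genes. With SGC0946 the same classes counted 18, 10, 10 and 8. Differences between the classes were not tested. Among the 10, the call with SGC0649 on Mrps27 was lost in 6 alternatives, among them without YFPneg SGC0649 61 (adjusted p = 0.41, edgeR) and without YFPpos SGC0649 62 or 63 (0.076 and 0.12). That on Mrps18b was lost in 5, among them without YFPneg SGC0649 61 or 62 (adjusted p = 0.069 and 0.21) and without YFPpos SGC0649 62 or 63 (0.072 and 0.14).

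Mrpl24 was the exception in the sorts as well. It was lower in YFPpos than in YFPneg cells with SGC0946 (log2 difference -0.32, SE 0.06, adjusted p = 0.00051, edgeR), and with SGC0649 the difference was -0.12 (adjusted p = 0.17). Mrps18c and Mrpl44, both higher than naive in all 4 cultured groups, were called between the sorts with neither compound (Mrpl44 at 0.20 and 0.19).

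Mrpl46 and Mrps11, on chr7, begin within overlapping start windows on opposite strands, and were chosen for description after their values were seen. Mrps11 stood at 31.9 and 29.1 CPM in YFPneg SGC0649 and 32.3, 34.5 and 38.3 CPM in YFPpos SGC0649 libraries, and Mrpl46 at 23.4 and 29.5 against 36.6, 41.4 and 47.7 CPM. The ratio of Mrpl46 to Mrps11 counts was 1.10 to 1.25 in the 6 YFPpos libraries, 0.73 to 1.01 in the 5 YFPneg libraries and 0.96 to 1.24 in naive libraries. The ratio was thus higher in all YFPpos than in all YFPneg libraries, with naive libraries spread over both ranges. Mrpl46 was higher in YFPpos cells (log2 difference 0.66, adjusted p = 0.0017, edgeR) and Mrps11 was not called (0.20, adjusted p = 0.2), and the difference between the 2 genes was not tested.

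The third set of comparisons asked what DOT1L inhibition changes, by setting SGC0946 against SGC0649 at the same dose and time within each sort. These are 2 compounds compared in 2 sorts. In YFPpos cells 26 of 76 members were lower with SGC0946 and 0 higher (edgeR, adjusted p under 0.05), where 27.7% of all genes were called, 12.1% higher and 15.7% lower. At an unadjusted p under 0.05, 42 members were lower and 0 higher, but the shares of all genes at that threshold were not computed. The median log2 difference was -0.23 over members and -0.04 over all genes. The count depended on single libraries: it was 16 without YFPpos SGC0649 62, 8 without YFPpos SGC0649 63, 16 without YFPpos SGC0946 91 and 11 without YFPpos SGC0946 92, and the median stayed between -0.26 and -0.19 under every alternative run. With DESeq2's size factors in place of TMM it was 16 lower and 0 higher. The summed NK cell and myeloid markers given above also differed between these groups, and their part in the result was not tested.

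Mrps28 (chr3:8802146-8923918), a small-subunit protein, showed the largest difference between compounds. In YFPpos cells it measured 22.0, 24.8 and 28.1 CPM with SGC0649 and 14.98, 16.2 and 18.1 CPM with SGC0946, without overlap. Its log2 difference was -0.60 (SE 0.14, 95% interval -0.90 to -0.31, adjusted p = 0.0046, edgeR). The next were Mrpl35 with 50.3, 54.2 and 58.1 CPM against 40.5, 35.2 and 41.6 CPM (-0.47, SE 0.10, adjusted p = 0.0027), Mrpl47 (-0.46), Mrpl38 (-0.42) and Mrpl16 (-0.42), which all belong to the large subunit. The calls on these genes held in every alternative run, except that on Mrpl38 without YFPpos SGC0649 63 (adjusted p = 0.051).

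**Figure D5:**
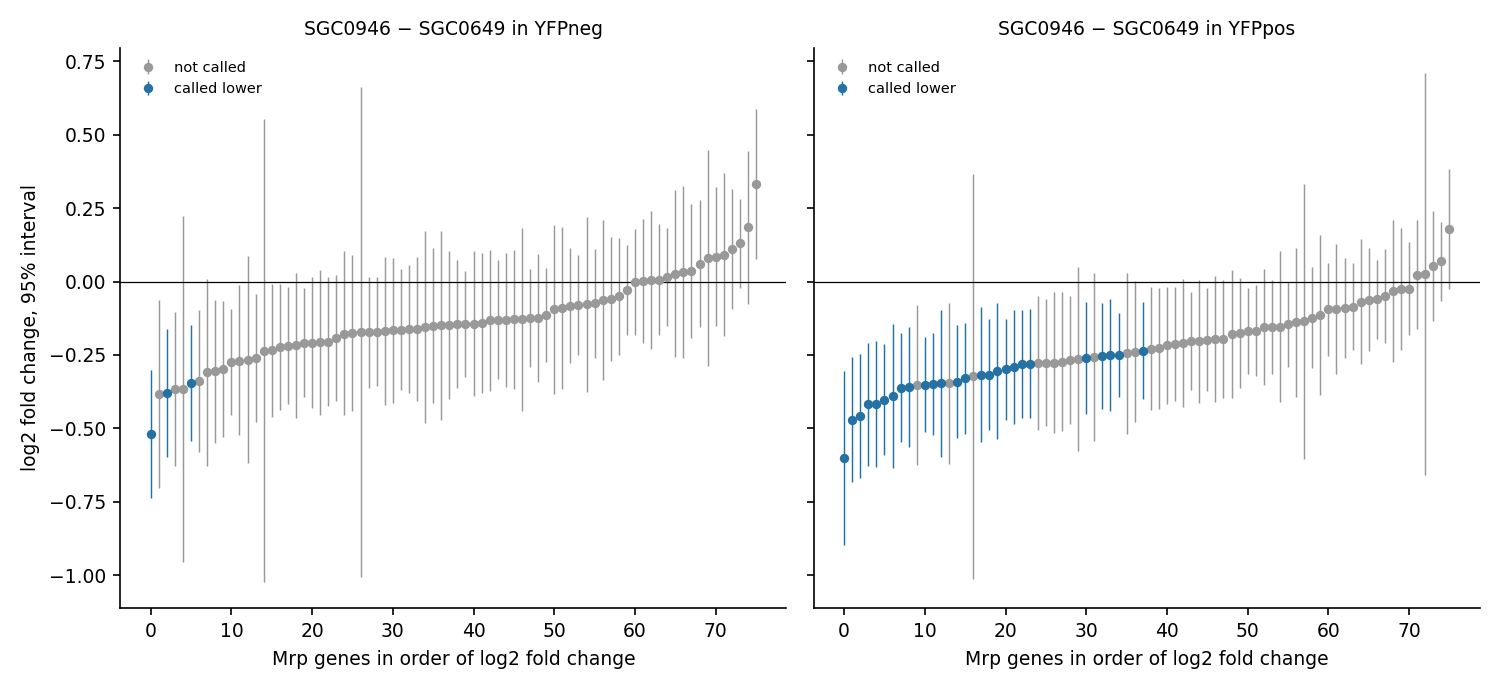
Log2 difference between SGC0946 and SGC0649 for the 76 tested Mrp genes in YFPneg (left) and YFPpos cells (right), in order of size, with 95% intervals; blue marks genes called lower. In YFPpos cells 26 genes are called lower and in YFPneg cells 3, and most estimates lie below 0 in both.

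By class, the members lower with SGC0946 in YFPpos cells were 11 of 30 large-subunit genes with a bacterial counterpart, 6 of 19 mitochondria-specific large-subunit genes, 7 of 16 small-subunit genes with a bacterial counterpart and 2 of 10 mitochondria-specific small-subunit genes. Mrpl12 (-0.26, adjusted p = 0.041, edgeR) and Mrps6 (-0.24, adjusted p = 0.033), both among the largest rises from naive cells, were called lower. Each call was lost in 8 of 12 alternatives, among them without YFPpos SGC0649 63 (adjusted p = 0.19 and 0.16, edgeR). Mrpl18, the most abundant member, was not called, and the 95% interval of its difference in YFPpos cells ran from -0.25 to 0.06. For Mrpl44 the interval ran from -0.14 to 0.24. Intervals of this width leave room for small differences in either direction.

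In YFPneg cells 3 members were lower with SGC0946 and 0 higher, in a comparison that called 8.63% of all genes (4.99% higher, 3.64% lower). At an unadjusted p under 0.05 there were 15 lower and 1 higher, again without matching shares of all genes. The median log2 difference was -0.15 over members and 0.01 over all genes. The 3 were Mrps5 (log2 difference -0.52, SE 0.10, adjusted p = 0.007, edgeR), Mrpl27 (-0.38, adjusted p = 0.032) and Mrpl37 (-0.34, adjusted p = 0.032), and all 3 were called lower in YFPpos cells too (-0.33, -0.28 and -0.35). In YFPpos cells the call on Mrpl37 held in every alternative. That on Mrps5 was lost in 2 of 12 alternatives, among them without YFPpos SGC0649 63 (adjusted p = 0.088, edgeR). That on Mrpl27 was lost in 6, among them without YFPpos SGC0946 92 (0.13). Mrps5 was 43.5 and 40.1 CPM with SGC0649 and 27.6 to 30.0 CPM with SGC0946 in this sort. The calls on Mrpl27 and Mrpl37 were lost without YFPneg SGC0649 61 (adjusted p = 0.11 and 0.064) or 62 (0.087 and 0.16). The count of 3 became 5 without YFPneg SGC0649 61, 1 without YFPneg SGC0649 62, 6 without YFPneg SGC0946 91 and 9 without YFPneg SGC0946 93, and 0 when the 2 groups were fitted alone. Across the 76 members the differences between compounds in the 2 sorts had a Pearson correlation of 0.37, beside 0.50 over all genes.

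Whether the difference between compounds itself depended on the sort was tested as an interaction. No member was called in either direction (edgeR, where 1.15% of all genes were called, 0.259% higher and 0.891% lower). The count was also 0 with DESeq2 and limma-voom. At an unadjusted p under 0.05, 4 members were lower and 0 higher, a threshold at which the shares of all genes were not computed. The smallest p belonged to Mrpl48, a mitochondria-specific large-subunit protein, at 17.1 and 15.7 CPM in YFPneg SGC0649, 19.98, 21.8 and 20.3 in YFPneg SGC0946, 24.9, 23.7 and 22.5 in YFPpos SGC0649 and 20.3, 19.6 and 21.5 in YFPpos SGC0946. SGC0946 libraries were higher in the YFPneg sort and lower in the YFPpos sort, but the interaction of -0.54 (SE 0.16, 95% interval -0.88 to -0.21) had an adjusted p of 0.13. The larger number of members called in YFPpos than in YFPneg cells is therefore not shown to be a difference between sorts.

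Other genes of the mitochondrial translation pathway did not share one direction. Of 6 mitochondrial ribosomal proteins that carry other names, 4 were higher and 1 lower in YFPpos SGC0649 than in naive cells. Chchd1, a small-subunit protein, was higher by a log2 difference of 0.96 (SE 0.08, adjusted p = 8.8e-09, edgeR) and Gadd45gip1, a large-subunit protein, by 0.78. Both were also higher in YFPpos than in YFPneg cells (0.66 and 0.44 with SGC0649), the latter without holding when YFPneg SGC0649 61 was left out (adjusted p = 0.072).

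Of 26 assembly genes tested, which modify the ribosomal RNAs or help put the subunits together, 12 were higher and 8 lower in YFPpos SGC0649 than in naive cells. These shares, 46.2% and 30.8%, lie near the 42.6% and 37.3% of all genes. C1qbp, a matrix protein needed for mitochondrial translation, rose by 1.68 (SE 0.09) and Ddx28, a helicase of large-subunit assembly, by 1.38, whereas Mettl17, a small-subunit assembly factor, fell by 1.74 on the log2 scale (SE 0.08, adjusted p = 3e-12, edgeR). Mettl17 was also lower in YFPpos than in YFPneg cells with both compounds (-0.60 and -0.59). Of 15 translation factors 8 were higher and 3 lower, led by Slirp, which stabilises mitochondrial messages, at 1.79 (SE 0.11, adjusted p = 5.8e-11), Tsfm, the elongation factor Ts, at 1.23 and Gfm1, the elongation factor G, at 1.13. Slirp differed between sorts by 1.01 and 1.05.

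Of 17 mitochondrial aminoacyl-tRNA synthetases 6 were higher and 9 lower than in naive cells, with Ears2, for glutamate, at -1.83 (SE 0.13, adjusted p = 8.7e-10, edgeR). Of 5 genes of mitochondrial transcription 1 was higher and 3 lower, among them Polrmt, the mitochondrial RNA polymerase, at -0.56 (SE 0.08, adjusted p = 3.9e-06). The medians of the 4 lists were 0.29 for assembly, 0.27 for translation factors, -0.33 for synthetases and -0.56 for transcription, beside 0.83 for the Mrp genes and 0.09 for all genes. With SGC0946 in YFPpos cells 8 of 26 assembly genes, 4 of 15 factors, 6 of 17 synthetases and 2 of 5 transcription genes were lower and none higher, where 15.7% of all genes were lower and 12.1% higher. They included Fastkd2 (-0.68, SE 0.13, adjusted p = 0.0015, edgeR), C1qbp (-0.45), Lrpprc (-0.39) and Polrmt (-0.33), whose calls held in every alternative run. Outside these lists Ptcd3, a mitochondrial ribosomal protein that carries another name, was also lower (-0.35), and its call held too. The calls on Ears2 (-0.54), Gfm1 (-0.33) and Tfam (-0.18), a factor that packages and transcribes mitochondrial DNA, were lost without YFPpos SGC0649 63 (adjusted p = 0.071, 0.098 and 0.11, edgeR). That on Gfm1 was also lost without YFPpos SGC0649 62 or YFPpos SGC0946 92, and that on Tfam in 8 alternatives in all. Lars2, the synthetase for leucine, was higher in YFPpos than in YFPneg cells. Its log2 difference was 3.24 with SGC0649 and 3.42 with SGC0946 (adjusted p = 6e-07 and 2.5e-08, edgeR). Mean levels were 1393 CPM in naive, 97.5 and 104.4 CPM in YFPneg and 919.5 and 1115 CPM in YFPpos cells, SGC0649 given first. Sequence shared with other transcripts was examined for Mrp genes only.

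The nuclear genes of the respiratory chain and ATP synthase, whose complexes receive the products of the mitochondrial ribosome, were also mostly higher in cultured and in YFPpos cells. Of 78 tested, 64 were higher and 4 lower in YFPpos SGC0649 than in naive cells (median log2 difference 0.84), and 62 were higher and 2 lower in YFPpos than in YFPneg cells with SGC0649 (0.39). With SGC0946 in YFPpos cells 2 were higher and 12 lower (median -0.10). Cytosolic ribosomal protein genes, by contrast, counted 18 higher and 36 lower of 85 in YFPpos SGC0649 against naive cells and 49 higher and 2 lower between the sorts with SGC0649. With SGC0946 in YFPpos cells 6 of these 85 were lower and 0 higher (median -0.08). Of all genes, 42.6% were higher and 37.3% lower in YFPpos SGC0649 than in naive cells. Between the sorts with SGC0649 these shares were 23.9% and 21.3%, and with SGC0946 in YFPpos cells 12.1% and 15.7%. The respiratory chain genes lower with SGC0946 and the cytosolic genes lower than naive thus lie near the shares of all genes. Differences between these lists and the Mrp genes were not tested.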

How the data were processed

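The authors deposited raw read counts per gene for 14 RNA-seq libraries, with a summary table of read counts per assignment category. The submitters' processing notes name featureCounts, edgeR, limma and build GRCm38 without versions. The aligner and the annotation release are not stated there. The deposited table is named as reverse-stranded counts of protein-coding genes. Members and gene lists were chosen with earlier results of these data known.

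Counts were fitted in edgeR 4.0.16 (R 4.3.3) with TMM factors and 1 coefficient per group over all 14 libraries. The function filterByExpr kept 12343 of 22048 genes. The quasi-likelihood test gave 9 comparisons, with Benjamini-Hochberg adjustment over all genes tested and a threshold of 0.05. Standard errors are the log2 difference divided by the root of F. CPM are counts relative to the TMM-scaled library total, so each library's total limits low genes most. Libraries of a group differed by more than counting noise, and none was a duplicate. Exon lengths, overlaps and 50-base matches came from GENCODE M21 (GRCm38), which held all 77 members, and promoters from RefSeq (GRCm38.p6). Protein sequences were not used here.

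Genes are named by these rules: the 4 largest called changes in each direction per comparison, all members where at most 5 were called, members called against the majority, the 3 highest and 3 lowest per kilobase, a set of genes with known roles, and up to 3 genes with the smallest p from each other list. Some genes and values were printed beside these rules, among them Mrpl46, Mrps11 and the values of Mrps22 in YFPpos SGC0649. Alternatives were DESeq2 1.42.0, limma-voom 3.58.1, other scalings, no filter, the compared groups alone, a replicate block and leaving out each library. On simulated data for YFPpos SGC0946 against SGC0649 (12343 genes), 18% of 1.2-fold, 56% of 1.5-fold and 76% of 2-fold changes were recovered. The changed genes, 50 for each fold, were drawn at random from all genes tested, whereas 27.7% of genes were called in the data. The adjusted threshold was thus stricter in the simulation, and these rates do not give the power for Mrp genes.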

Additional observations from a re-analysis of the deposited data

How the results depend on the processing

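Medians over members kept their sign in every comparison under every alternative, and no printed value of a named gene changed sign. Counts of members moved as follows. Against naive cells, the members lower in YFPpos SGC0649 went from 2 to 1 with no filter on low counts and with library totals in place of TMM (chosen after seeing the data), and were 1 to 2 when single libraries were left out. For the sorts with SGC0649 the count of members higher was 53, fell to 35 with a replicate block on the sample numbers, and was 37 to 52 with single libraries left out. With SGC0946 the members lower were 1 to 2 with single libraries left out. SGC0946 against SGC0649 in YFPneg cells gave 3 lower members, 6 with DESeq2, 0 with only the compared groups fitted and 1 to 9 with single libraries left out. In YFPpos cells the same contrast gave 26 lower members, 16 with DESeq2 size factors and 8 to 26 with single libraries left out, and 1 higher member with only the compared groups fitted. The cause of these shifts was not tested. Leaving out YFPneg SGC0649 61 or 62 leaves that group with 1 library, assumed to vary like the others. The labels do not say whether equal sample numbers pair the sorts, and the libraries were analysed as unpaired. Deviations of same-numbered libraries correlated at 0.036 to 0.147, and 4 of 5 matched their own number best, a hint of pairing from the data and not from the design. With the block the members higher with SGC0946 were 48 against 47. No scaling moved the median of all genes by over 0.1. Depth limits Mrpl53, Mrpl23, Mrps36 and Mrps33, which lie under 10 CPM.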
